A study of Mus musculus with 8 samples.

Results

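The enzymes that build purine and pyrimidine nucleotides from small precursors were examined in *Zeb1*-/- hematopoietic stem and progenitor cells (HSPCs). The 10 genes were taken by name from the 54532 genes of the count table. They were *Ppat*, *Gart*, *Pfas*, *Paics*, *Adsl* and *Atic*, which together carry the purine route to inosine monophosphate (IMP), *Impdh2*, which commits IMP to guanine nucleotides, and *Cad*, *Dhodh* and *Umps*, which carry the pyrimidine route to uridine monophosphate. All 10 passed the filter on low counts, and so were among the 13560 genes tested. Bone marrow cells of the LSK phenotype (Lin- Sca-1+ c-Kit+, the gate that holds stem cells and early progenitors) had been sorted into EpCAM+ and EpCAM- fractions, with 4 libraries each. EpCAM is an epithelial adhesion molecule. All libraries came from C57BL/6 mice of 8 to 12 weeks with *Zeb1* deleted by Mx1-Cre, a recombinase under an interferon-inducible promoter that also acts in tissues other than blood. Deletion was induced with pIpC, cells were taken 14 days after the last dose, and mice with intact *Zeb1* are not analysed here, so that both fractions shared genotype and treatment.

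Proliferating cells depend on the de novo routes because replication and ribosome production consume nucleotides faster than salvage of free bases and nucleosides replaces them. The purine route assembles the ring on ribose phosphate activated as phosphoribosyl pyrophosphate (PRPP), and draws carbon from the folate pathway. The pyrimidine route makes the ring first and attaches it to PRPP afterwards, with one step, that of *Dhodh*, on the inner mitochondrial membrane. Genes of both routes are known targets of the transcription factor Myc, which binds with Max to the E-box CACGTG.

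The windows of 250 bases before and 50 bases after the RefSeq start (build GRCm38.p6) were read for 8 of the 10 genes. The palindrome CACGTG was found in 3 of them, and it occurs in 7.15% of all 32851 windows. It is shown here in capitals within 30 bases on the strand of the gene, because the gene with the smallest difference between fractions (*Paics*) and the genes on either side of the branch at IMP carry it.

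Paics: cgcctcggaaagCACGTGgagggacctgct

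Atic: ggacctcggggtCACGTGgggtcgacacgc

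Impdh2: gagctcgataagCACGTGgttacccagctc

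The *Paics* stretch is chr5:76951087-76951116 (+), 203 bases before the RefSeq start at the first base of the motif. It lies within the annotated span of the neighbouring gene *Ppat*. The *Atic* stretch is chr1:71557137-71557166 (+) and crosses the annotated start of the gene. The *Impdh2* stretch is chr9:108560314-108560343 (+), after the annotated start of the gene at base 108560286. Its motif begins 110 bases before the RefSeq start. *Gart* and *Cad* had the largest differences in the purine and the pyrimidine route. Their windows, which end 50 bases after the RefSeq start, lacked the palindrome, and bases beyond were not read. Both held the GC box, GGGCGG on either strand (capitals), in the 60 bases before their starts.

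Gart: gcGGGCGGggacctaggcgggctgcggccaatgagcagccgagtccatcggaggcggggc

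Cad: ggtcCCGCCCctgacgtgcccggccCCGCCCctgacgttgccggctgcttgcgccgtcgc

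These are chr16:91646973-91647032 (-) and chr5:31054720-31054779 (+). The GC box was present in 8 of the 8 windows and in 35.7% of all windows. CCAAT, counted on both strands, was present in 4 of the 8 (*Gart*, *Paics*, *Atic* and *Impdh2*) and in 37.4% of all, and CGGAAG on either strand in 4 of the 8 (*Ppat*, *Gart*, *Adsl* and *Umps*) and in 16.9% of all. CACCTG on either strand, the E2-box that ZEB1 binds, was in 0 of the 8 windows and in 20.2% of all. GGGCGG and CGGAAG can share letters, as they do in the *Umps* window, while neither E-box form contains the other. A match or its absence in so short a window is a description of the letters alone.

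The libraries held 15225714 to 17073546 counted reads in EpCAM+ and 14114491 to 15929923 in EpCAM-. *Epcam* itself was at 160.5 to 234 CPM (counts scaled to a common normalised library total) in EpCAM+ and at 1.25 to 8.99 in EpCAM-. *Zeb1* was at 14.8 to 23.7 and 9.49 to 14.0, a gene-level count that does not separate the deleted exon and so does not check the deletion. Of the LSK markers, *Ly6a* (2.28 higher on the log2 scale), *Flt3* (0.88) and *Kit* (0.45) rose in EpCAM+ and *Cd34* (0.28) did not pass. *Kit* no longer passed when EpCAM+ replicate 1 or 3 or EpCAM- replicate 2, 3 or 4 was left out (adjusted p up to 0.0832, edgeR), and *Cd34* passed with the replicate number as a block (0.0485). Markers of other cells also differed. Summed levels of 8 erythroid markers were 52.3 to 239 CPM in EpCAM+ and 1904 to 6625 in EpCAM-, and 5 of the 7 tested passed as lower and 1 as higher (*Hbb-bt*, 10.2 against 3.98 CPM). Summed levels of 9 neutrophil markers were 1039 to 1604 and 10706 to 17117, with 3 of 8 lower (*Mpo*, *Elane* and *Prtn3*). *Mpo* alone averaged 781 against 10435 CPM, while *Ltf*, *Ngp*, *S100a8*, *S100a9* and *Camp* did not pass. Plasma cell markers summed to 384.8 to 3961 in EpCAM+ and 169 to 256 in EpCAM-, with *Jchain* and *Mzb1* higher. *Xbp1*, at 238 against 225 CPM on average, and *Sdc1*, at 11.7 against 4.83, did not pass. *Tnfrsf17* (3.22 against 0.0526 CPM), *Irf4* (0.819 against 0.0171) and *Prdm1* (0.676 against 0.290) were not tested. Dendritic cell markers summed to 17.2 to 224 in EpCAM+ and 7.10 to 19.2 in EpCAM-, with 4 of 5 higher, among them *Xcr1* (81.3 against 0.403 CPM), and 2 of 3 B cell markers were higher. Monocyte markers summed to 76.7 to 316 and 194 to 821, with 4 of 6 lower, and mast cell and basophil markers to 68.3 to 91.2 and 231 to 479, with 3 of 5 lower. T cell, NK cell and stromal markers summed to under 4 CPM in every library, and 1 of 4 megakaryocyte markers was higher. Immunoglobulin genes took 5.62% of reads in EpCAM+ replicate 1, against 0.423% to 0.705% in the other EpCAM+ libraries and 0.0116% to 0.0253% in EpCAM-.

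Compared with the EpCAM- fraction, 8 of the 10 enzyme genes fell in *Zeb1*-/- EpCAM+ HSPCs and none rose (edgeR quasi-likelihood test, Benjamini-Hochberg adjusted p below 0.05). Among all tested genes 20.8% fell and 21.8% rose. The median log2 fold change of the 10 genes was -0.48, against 0.02 over all genes tested. In 8 of the 10, the same ones, every EpCAM+ library lay below every EpCAM- library, which held for 20% of all tested genes. In bulk RNA, fewer cells of a type and less RNA per cell cannot be told apart. Replicates were separate samples of each fraction, 4 mice per genotype by the labels, and EpCAM+ and EpCAM- libraries of the same number deviated together.

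**Figure D1:**
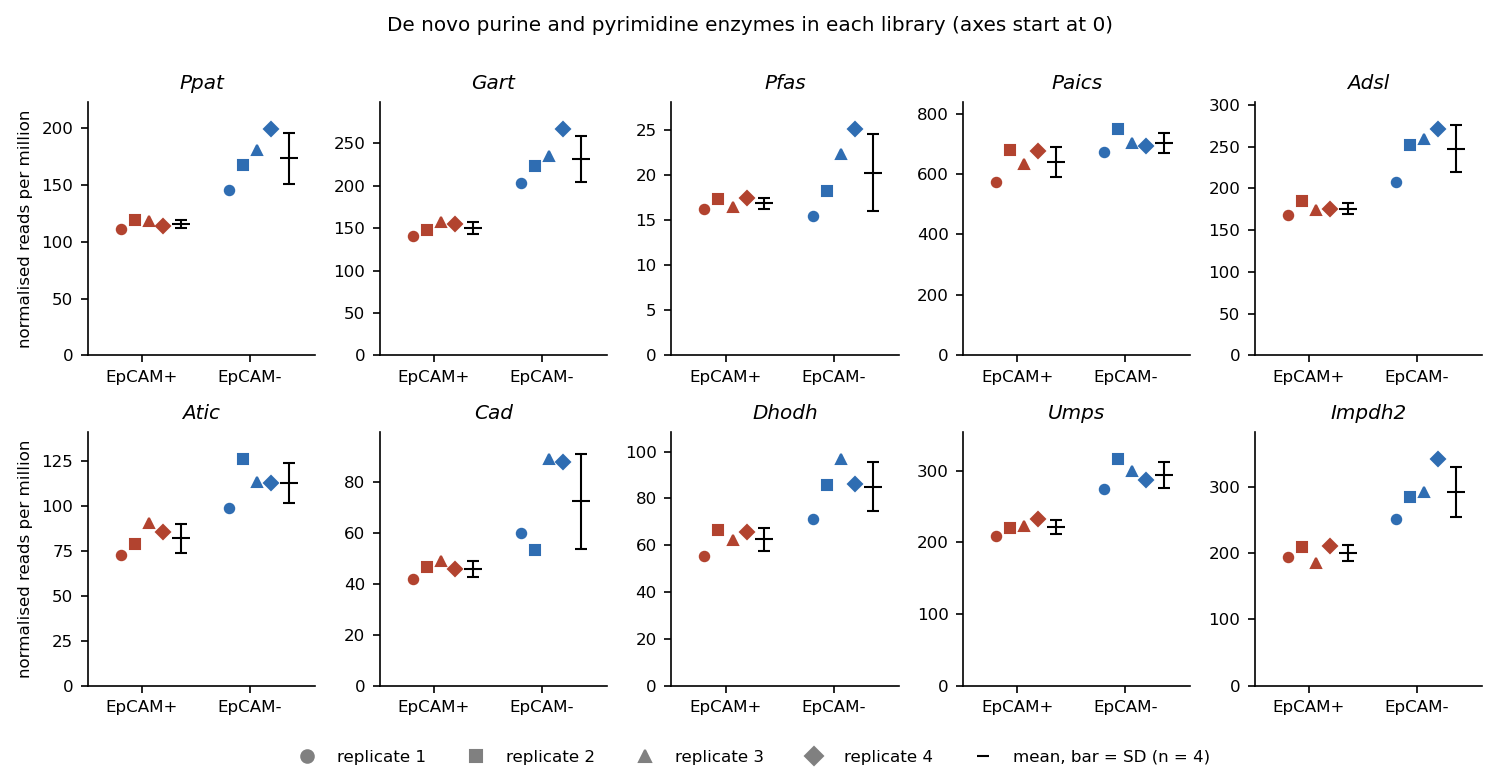
Normalised CPM (y axis, from 0) of the 10 enzyme genes in each of the 4 EpCAM+ (red) and 4 EpCAM- (blue) libraries, with marker shapes for the replicate number and the mean with SD beside them. The fractions overlap for *Pfas* and *Paics* and for none of the other 8 genes.

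The purine route opens with *Ppat*, the amidotransferase that commits PRPP to purines and is inhibited by the end products. *Ppat* was at 111, 119.6, 118 and 114 normalised CPM in EpCAM+ replicates 1 to 4 and at 146, 168, 181 and 199.7 in the EpCAM- replicates. The lowest EpCAM- library, replicate 1, was still above the highest EpCAM+ library. The log2 fold change was -0.58 ± 0.09 (SE; adjusted p = 0.00100, edgeR), so that expression fell by 33.3%.

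*Gart* encodes a single protein with synthetase, transformylase and cyclase activities. It was at 141, 148, 157 and 155 in EpCAM+ and at 203, 223, 235 and 267 in EpCAM-, and so the fractions did not overlap. The log2 fold change of -0.63 ± 0.09 (adjusted p = 0.000604, edgeR) was the steepest among the purine members.

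The next enzyme, FGAM synthase (*Pfas*), had the fewest reads of the group, 246 to 342 counts per library. It was at 16.3, 17.4, 16.5 and 17.4 CPM in EpCAM+, a narrow range, and at 15.5, 18.2, 22.3 and 25.2 in EpCAM-. The EpCAM- values straddled those of EpCAM+, since replicate 1 was below all 4 of them. The difference was -0.26 ± 0.15 and did not pass (adjusted p = 0.168, edgeR). Without EpCAM- replicate 1 it did (adjusted p = 0.0349), so that 9 of the 10 genes then fell, while without EpCAM- replicate 4 the difference shrank to -0.15 (adjusted p = 0.408).

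*Paics* carries the carboxylase and the following synthetase activity in a bifunctional protein. Its levels were 573, 679, 632 and 677 in EpCAM+ and 672, 749.9, 701 and 692 in EpCAM-. EpCAM+ replicates 2 and 4 reached into the EpCAM- range. The log2 fold change was -0.14 ± 0.08 (adjusted p = 0.192, edgeR), the smallest of the group, even though the gene has the most reads, 8766 to 11978 per library. EpCAM+ was lower in 4 of the 4 numbered pairs.

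The last enzymes of the route to IMP fell together. *Adsl*, the lyase that also acts on the branch to AMP, was at 168, 185, 174 and 175 in EpCAM+ and at 208, 252, 259 and 271 in EpCAM- (-0.50 ± 0.09, adjusted p = 0.00165, edgeR). *Atic*, which adds the last carbon and closes the second ring, was at 72.6, 78.9, 90.6 and 85.8 in EpCAM+ and at 98.7, 126, 114 and 113 in EpCAM- (-0.46 ± 0.09, adjusted p = 0.00357). EpCAM- replicate 1 was the lowest library of its fraction for both genes, without reaching the EpCAM+ values.

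*Impdh2*, the dehydrogenase that sets the rate of guanine nucleotide synthesis in dividing cells, was at 195, 209, 185 and 209.97 in EpCAM+ and at 251, 285, 292 and 342 in EpCAM-. Again the fractions did not overlap. The log2 fold change was -0.55 ± 0.10 (adjusted p = 0.00154, edgeR). A processed pseudogene of this gene, *Impdh2-ps* (chr8:100030558-100032102), held 30.1% to 31.2% as many reads as *Impdh2* in EpCAM+ and 28.6% to 30.6% in EpCAM-, and reads that match both copies may have been divided between them. The 3′ end of *Impdh2* also overlaps *Ndufaf3*. With the pseudogene's reads added to *Impdh2* the number of enzyme genes that fell was still 8.

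Among the pyrimidine enzymes, *Cad* encodes the multifunctional protein of the opening steps and is the regulated entry to the route. It was at 41.8, 46.4, 49.1 and 45.7 in EpCAM+ and at 59.7, 53.2, 88.9 and 87.8 in EpCAM-. The EpCAM- libraries divided into a lower pair, replicates 1 and 2, and a higher pair, replicates 3 and 4, while even the lower pair was above the EpCAM+ range. *Cad* had the largest difference and the widest error of the 10 genes, with a log2 fold change of -0.66 ± 0.16 (adjusted p = 0.00825, edgeR).

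*Dhodh*, the dehydrogenase coupled to ubiquinone in the mitochondrion, was at 55.4, 66.5, 62.3 and 65.7 in EpCAM+ and at 71.1, 85.8, 96.8 and 86.1 in EpCAM- (-0.44 ± 0.10, adjusted p = 0.00589, edgeR). *Umps*, which attaches the ring to PRPP and decarboxylates it to uridine monophosphate, was at 209, 221, 224 and 232 in EpCAM+ and at 274, 317, 299.8 and 287 in EpCAM- (-0.41 ± 0.07, adjusted p = 0.00141). Both fell in every numbered pair, and for both the lowest library of each fraction was replicate 1.

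Levels were compared between the enzymes after correction for length. On the scale of CPM per kilobase of the deposited gene length, *Paics* was highest in EpCAM- at 224 ± 10.5 (SD, n = 4), followed by *Impdh2* at 95.1 ± 12.2 and *Umps* at 84.5 ± 5.19. *Impdh2* and *Umps* overlapped in range, as did *Gart* at 45.1 ± 5.25, *Adsl* at 43.9 ± 4.92 and *Ppat* at 39.3 ± 5.11. *Atic* at 14.1 ± 1.40 and *Dhodh* at 13.4 ± 1.67 could not be separated either. *Cad* at 8.85 ± 2.27 and *Pfas* at 2.56 ± 0.541 were the lowest. The deposited FPKM values imply other lengths, 802 in place of 3077 bases for *Impdh2* for example. With those lengths *Paics* and *Impdh2* were still first and second and *Cad* and *Pfas* last, while the order between them changed.

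The genes around the 10 enzymes, which supply PRPP or complete the routes to AMP, GMP and CTP, fell less uniformly. Of 10 tested, 6 fell and 0 rose, with a median log2 fold change of -0.28. The steepest were *Ctps* (CTP synthase, -0.66 ± 0.11, adjusted p = 0.00128, edgeR), *Gmps* (GMP synthetase, -0.64 ± 0.08, adjusted p = 0.000296) and *Prpsap1* (a PRPP synthetase-associated protein, -0.43 ± 0.09, adjusted p = 0.00444). The PRPP synthetases *Prps1* and *Prps2* (-0.35 ± 0.10 and -0.26 ± 0.06) and *Adss* (adenylosuccinate synthetase, -0.23 ± 0.06) also fell, though these 3 no longer passed with upper-quartile scaling or library totals. *Prps1* also missed without EpCAM- replicate 3 or 4 (adjusted p up to 0.0591, edgeR). On the branch to GMP, *Impdh2* and *Gmps* had larger differences than *Adss* and *Adssl1* (-0.31 ± 0.13, not called) on the branch to AMP, a contrast that was not tested. It leaves out *Impdh1*, also on the branch to GMP, and *Adsl* (-0.50 ± 0.09), which also acts on the branch to AMP. *Impdh1* (0.08 ± 0.08), *Ctps2* (0.14 ± 0.06) and *Prpsap2* (0.16 ± 0.13) did not pass. *Adssl1* passed as lower with the replicate number as a block (adjusted p = 0.0175, edgeR), with DESeq2 (0.0411) and without EpCAM- replicate 4 (0.0205). *Ctps2* passed as higher with the block (adjusted p = 0.0479, edgeR), with upper-quartile scaling (0.0155) and with library totals (0.0279).

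**Figure D2:**
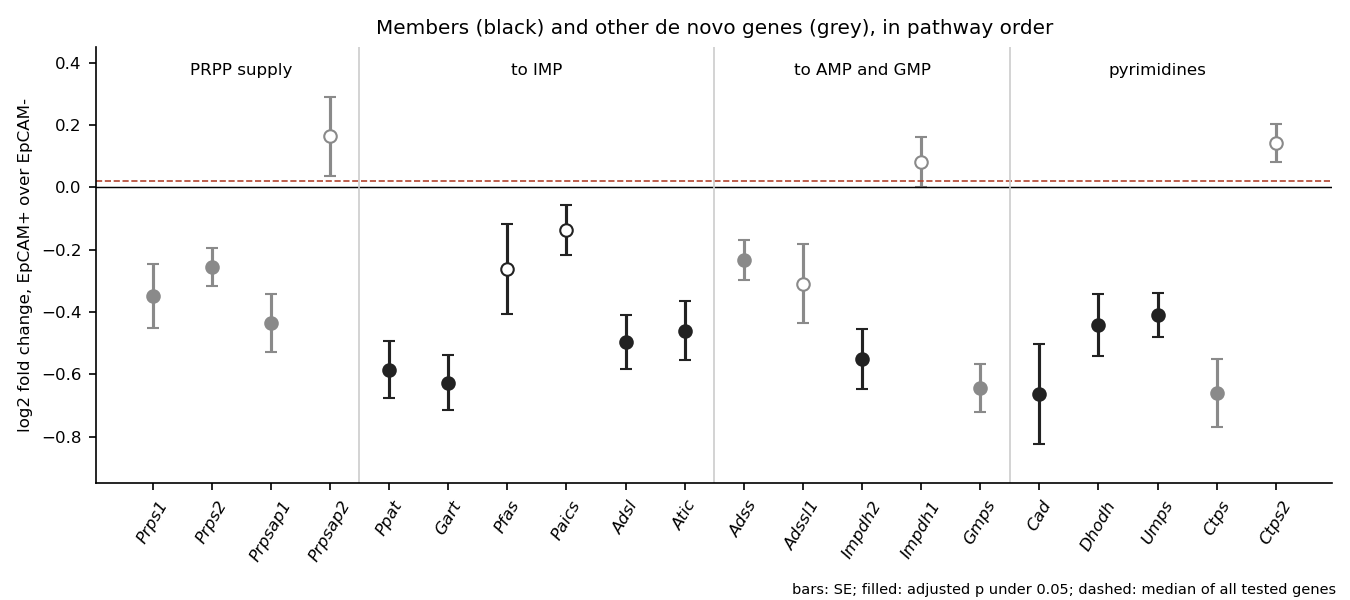
Log2 fold change of EpCAM+ over EpCAM- (y axis, with SE bars) for the 10 members (black) and 10 other de novo genes (grey) in pathway order, filled where the adjusted p was below 0.05. All 10 members lie below 0 and below the dashed median of all tested genes, and the points above 0 are *Prpsap2*, *Impdh1* and *Ctps2*.

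Ratios of read counts within a library, which no scaling of libraries can move, were compared for 4 pairs of genes. Exact two-sided permutation tests of 4 against 4 libraries were used, where the smallest possible p is 0.0286. These tests did not use the replicate numbers as pairs, and the paired form, given with the last ratio, cannot go below 0.125. *Impdh2* had 1.74, 1.85, 1.56 and 2.11 reads per read of its isozyme *Impdh1* in EpCAM+ and 2.21, 2.75, 2.74 and 3.62 in EpCAM-. The ranges did not meet, and the log2 ratio differed by -0.63 (exact p = 0.0286, 0.0381 after adjustment over the 4 ratios). *Impdh1*, the isozyme known as the constitutive form, was at 111 ± 7.96 CPM in EpCAM+ and at 105 ± 8.03 in EpCAM- (SD, n = 4).

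The CTP synthases showed the same kind of shift. *Ctps* had 0.35, 0.491, 0.381 and 0.38 reads per read of *Ctps2* in EpCAM+ and 0.586, 0.701, 0.706 and 0.811 in EpCAM-. The log2 ratio differed by -0.81 (exact p = 0.0286, adjusted 0.0381), and EpCAM+ was lower in 4 of 4 pairs. In contrast, the ratio of *Prps1* to *Prps2* was 1.97 in EpCAM+ and 2.09 in EpCAM- as geometric means, with overlapping ranges (log2 difference -0.09, exact p = 0.457).

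*Ppat* and *Paics* lie head to head on chromosome 5, *Ppat* at chr5:76913249-76951578 (-) and *Paics* at chr5:76951307-76967509 (+), with 272 bases in common at their 5′ ends. The pair did not fall in proportion. There were 0.195, 0.176, 0.187 and 0.169 *Ppat* reads per *Paics* read in EpCAM+ and 0.217, 0.224, 0.258 and 0.289 in EpCAM-, and the ranges did not meet (log2 difference -0.44, exact p = 0.0286, adjusted 0.0381). The strand setting of the counting is not given in the sources used here, so reads in the shared stretch cannot be assigned with certainty. In paired form, over 4 numbered pairs, none of the 4 ratio tests can go below 0.125, which was the value for these 3 ratios.

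**Figure D3:**
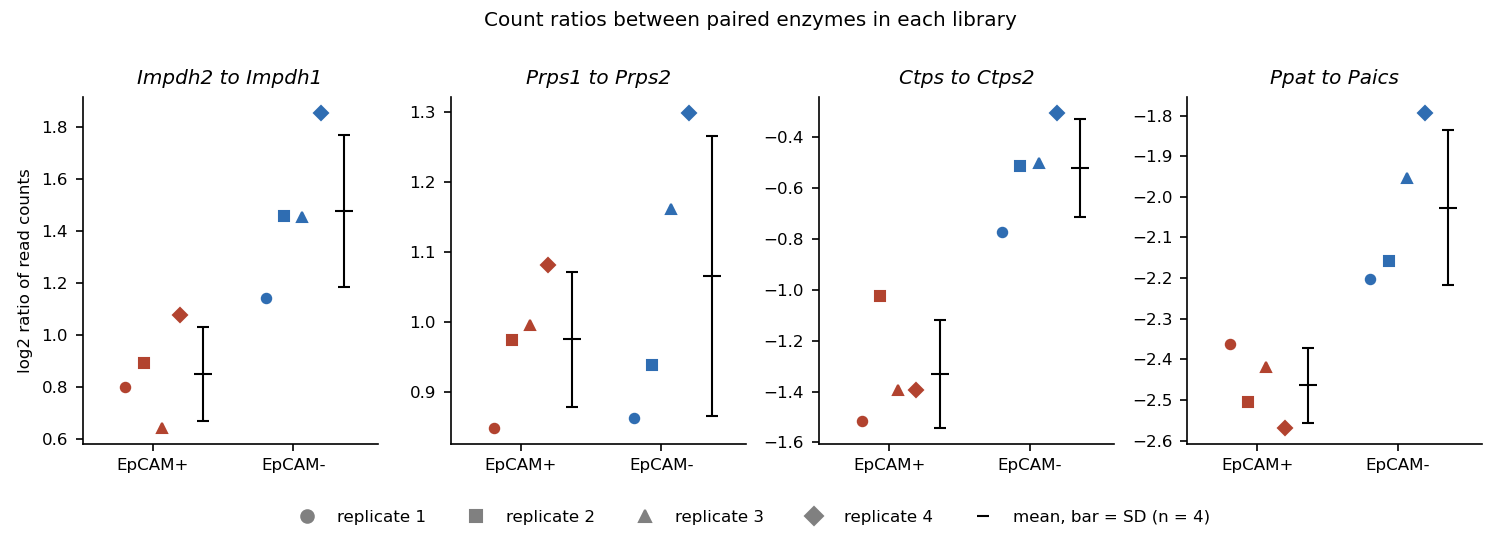
Log2 ratio of read counts (y axis, a separate range in each panel) for 4 gene pairs in every library, with mean and SD per fraction (n = 4). EpCAM+ (red) lies wholly below EpCAM- (blue) for *Impdh2* to *Impdh1*, *Ctps* to *Ctps2* and *Ppat* to *Paics*, and the fractions overlap for *Prps1* to *Prps2*.

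Downstream and side pathways were counted on lists of genes with known roles. The kinases and enzymes that turn monophosphates into deoxynucleotides had 9 of 14 lower and 1 higher (median -0.36). Over all tested genes 20.8% were lower and 21.8% higher. *Rrm2*, the replication-linked subunit of ribonucleotide reductase, fell by 0.71 on the log2 scale (SE 0.11, adjusted p = 0.000808, edgeR), as did *Nme1* (-0.57 ± 0.13) and *Rrm1* (-0.44 ± 0.10). *Rrm2b*, the p53-induced alternative subunit, rose by 0.52 ± 0.14 (adjusted p = 0.0148) at a low level, 9.99 against 6.98 CPM.

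Salvage genes were called in both directions, as were all tested genes (20.8% lower and 21.8% higher). Of 12 tested genes 3 fell, 2 rose and 7 did not pass (median -0.12). The balance turned with the scaling, to 3 lower and 5 higher by upper-quartile scaling and to 3 and 4 by library totals. Those that fell were *Uck2*, the uridine-cytidine kinase (-0.93 ± 0.09, adjusted p = 0.000155, edgeR), *Adk*, adenosine kinase (-0.73 ± 0.14, adjusted p = 0.00264), and *Aprt*, which recovers adenine (-0.56 ± 0.07, adjusted p = 0.000401). *Upp1*, the uridine phosphorylase, rose from 2.50 to 13.5 CPM (2.42 ± 0.32, adjusted p = 0.000480), and *Dguok* rose by 0.27 ± 0.10 (adjusted p = 0.0476), which held in 1 of the 8 fits that each omitted a library (adjusted p up to 0.147), the one without EpCAM+ replicate 4. *Hprt*, which recovers hypoxanthine and guanine, was at 409 against 462 and passed as lower only with the replicate block (adjusted p = 0.193, and 0.0260 with the block).

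Of 13 tested breakdown genes 5 fell and 2 rose (median -0.31), where 20.8% of all tested genes fell and 21.8% rose. *Pnp* fell by 0.39, *Nt5c* fell by 0.38, *Gda* fell by 1.91 and *Pnp2* fell by 0.75 on the log2 scale, and *Xdh* was lower at 1.93 against 3.74 CPM. *Nt5c3b* (0.46 ± 0.09, adjusted p = 0.00379, edgeR) and *Samhd1*, which degrades deoxynucleotides (0.48 ± 0.17, adjusted p = 0.0446), were higher. Several of these calls were lost when a library was left out. *Pnp2* was lost without EpCAM+ replicate 3 or EpCAM- replicate 4 (adjusted p up to 0.0623), *Xdh* held only without EpCAM+ replicate 1 or EpCAM- replicate 2 (up to 0.122), and *Samhd1* only without EpCAM+ replicate 2 or 3 or EpCAM- replicate 1 (up to 0.127). *Xdh* also missed with limma-trend (adjusted p = 0.0566). In edgeR it missed with upper-quartile scaling or library totals (up to 0.0653) and with a filter of 1 count in any library (0.0581). *Samhd1* missed with limma-trend (adjusted p = 0.0536). With the replicate block 8 of the 13 were lower. *Dpyd* had no read in any library.

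The folate enzymes that feed carbon to *Gart* and *Atic* moved most. Of 6 tested, 5 fell and 0 rose, with a median log2 fold change of -0.62. *Mthfd1*, the cytosolic enzyme that makes formylated folate, dropped from 292 to 117 CPM (-1.32 ± 0.18, adjusted p = 0.000547, edgeR). *Mthfd1l*, *Shmt2* and *Mthfd2* of the mitochondrial arm had log2 fold changes of -0.71, -0.69 and -0.55 and all passed, while *Mthfd2l* was at 20.8 and 18.4 and did not pass.

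Over these 5 lists together, with 10, 14, 12, 13 and 6 genes tested, 28 genes fell and 5 rose. Over all tested genes 20.8% fell and 21.8% rose. The count that rose depended on the scaling and the libraries, with 9 by upper-quartile scaling, 8 by library totals, and 3 without EpCAM+ replicate 1, without EpCAM- replicate 2 or without EpCAM- replicate 3.

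**Figure D4:**
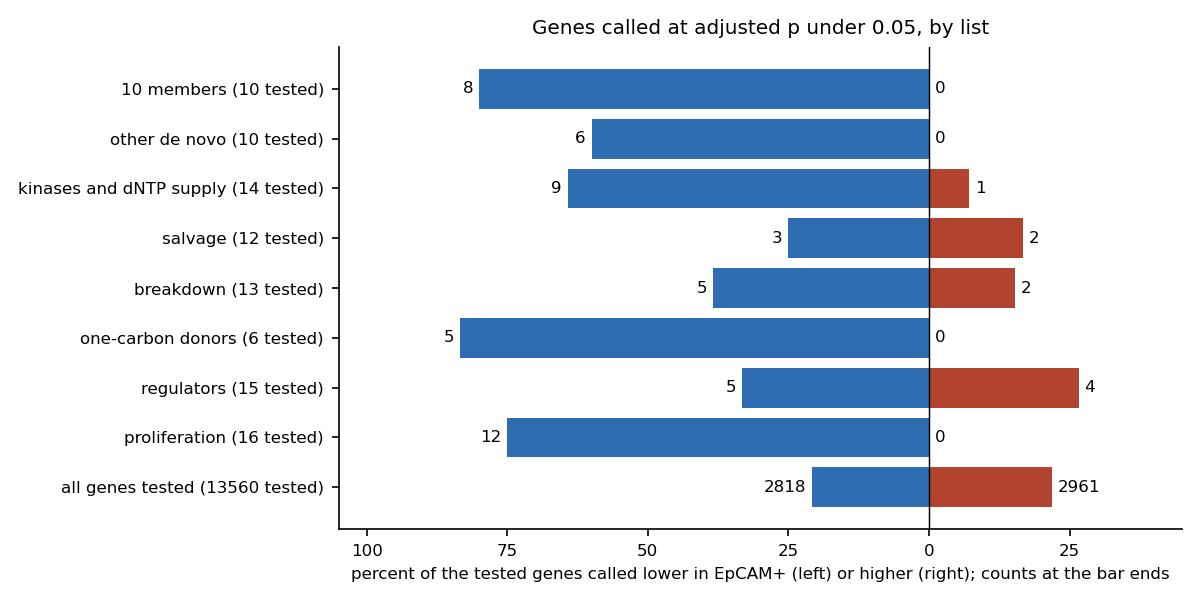
Share of tested genes of each list (x axis, percent) called lower (blue, left) or higher (red, right) in EpCAM+ at an adjusted p below 0.05, with counts at the bar ends. The members (8 of 10), the folate donors (5 of 6) and the proliferation genes (12 of 16) have longer left bars than all tested genes (2818 of 13560).

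Regulators of the pathway moved in both directions, as did all tested genes, of which 20.8% fell and 21.8% rose. Of 15 regulators tested, 5 fell and 4 rose (median -0.01, against 0.02 over all genes tested). *Myc* was at 440 against 582 CPM (-0.40 ± 0.13, adjusted p = 0.0265, edgeR), *Mlx* fell by 0.45, *Rps6kb1*, the S6 kinase that acts on CAD protein, fell by 0.27, and *Atf4*, an activator of folate and serine genes, fell by 0.32. The falls of *Myc*, *Atf4* and *Max* (-0.38 ± 0.13) did not pass with upper-quartile scaling or library totals, nor that of *Rps6kb1* with upper-quartile scaling (adjusted p = 0.0512, edgeR). These settings left 1 (upper-quartile) and 2 (library totals) of the 15 lower. *Myc* was also lost without EpCAM+ replicate 1 or EpCAM- replicate 3 or 4 (adjusted p up to 0.0777, edgeR) and *Atf4* without EpCAM- replicate 3 (0.0510). Of the fits that each omitted a library, *Max* held only in those without EpCAM+ replicate 1 or EpCAM- replicate 1 (adjusted p up to 0.0962 in the others, edgeR). Without EpCAM- replicate 3, 2 of the 15 were lower, and without EpCAM- replicate 4, 3 were. *Mycn* rose from 18.6 to 49.5 (1.41 ± 0.28, adjusted p = 0.00282), and *Mxd3* and *Mxd1*, which compete with Myc for Max, by 0.58 and 0.50. *Mycl* rose from 0.490 ± 0.493 CPM in EpCAM- to 16.5 ± 14.1 in EpCAM+ (SD, n = 4, adjusted p = 0.00197, edgeR), unevenly between EpCAM+ libraries.

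Proliferation genes fell alongside the enzymes. Of 16 tested, 12 fell and 0 rose (median -0.35), among them *Mcm5* (-0.42 ± 0.08, adjusted p = 0.00181, edgeR), *Ccna2* (-0.57 ± 0.10, adjusted p = 0.00165), *Mcm7* (-0.41 ± 0.08, adjusted p = 0.00228) and *Mcm2* (-0.41 ± 0.08, adjusted p = 0.00299). *Mki67*, *Top2a*, *Pcna* and *Mcm6* did not pass, with differences of -0.12, -0.10, -0.16 and -0.20. With the replicate block *Pcna* (adjusted p = 0.0405, edgeR) and *Mcm6* (0.0298) did. Upper-quartile scaling left 9 of the 16 lower, without *Cdk1*, *Birc5* and *Bub1*. Library totals left 8, without *Cdk1*, *Bub1*, *Mcm3* and *Mcm4*. *Cdk1* passed in 4 of the 8 fits that each omitted a library (adjusted p up to 0.0876, edgeR), and *Birc5* in 6 (up to 0.0601). The part of cell cycle state and of the marker genes of other cells in the fall of the 10 enzymes was not tested.

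Within the EpCAM- fraction the enzymes varied from library to library. As the mean deviation from each gene's average over the 8 libraries, the 10 genes stood at -0.33, -0.19, -0.21 and -0.18 on the log2 scale in EpCAM+ replicates 1 to 4, and at 0.02, 0.20, 0.32 and 0.37 in EpCAM-. The folate donors had the same order of EpCAM- libraries, at 0.06, 0.24, 0.38 and 0.44. The erythroid markers had it as a sum, at 1904, 2183, 4876 and 6625 CPM, of which *Car1* averaged 3443. As a mean deviation the erythroid markers stood at 1.04, 0.90, 1.57 and 2.03, with replicate 2 below replicate 1. The LSK markers ran in the reverse order of the enzymes, at -0.06, -0.22, -0.81 and -0.98, as did *Epcam*, at 8.99, 3.77, 1.43 and 1.25 CPM. Proliferation genes stood at 0.10, 0.13, 0.13 and 0.33, and the other de novo genes were nearly level at 0.11 to 0.14. With 4 libraries no correlation was computed.

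**Figure D5:**
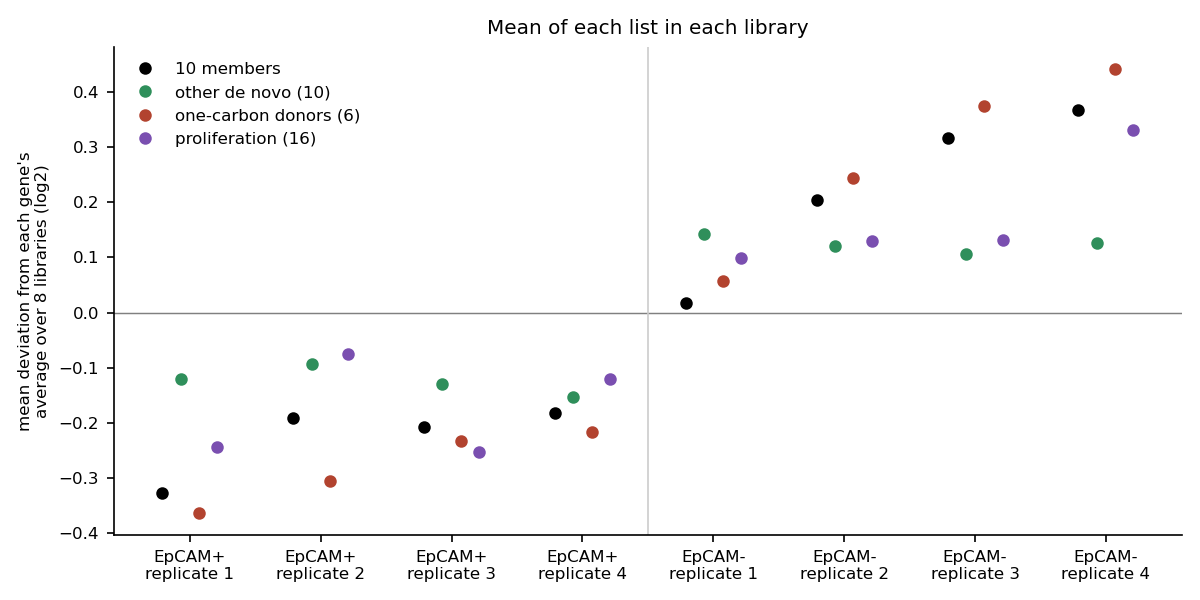
Mean deviation of the genes of 4 lists from each gene's own average over the 8 libraries (y axis, log2) in each EpCAM+ and EpCAM- library (x axis). All EpCAM+ means lie below 0 and all EpCAM- means above, and the members range from 0.02 to 0.37 among the EpCAM- libraries.

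Outside all the lists, the 5 protein-coding genes with a profile closest to the mean of the 10 enzymes over the 8 libraries were *Pold2*, a subunit of DNA polymerase delta, *Ecd*, *Ebna1bp2*, a ribosome assembly factor, *Apopt1* and *Dazap1*. Their root mean square difference from that mean was 0.0308 to 0.0400 on the log2 scale, against 0.0415 to 0.196 for the 10 enzymes themselves and a median of 0.351 over all tested genes. As the rule picked them, each was lower in EpCAM+, with log2 fold changes of -0.51 to -0.43.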

How the data were processed

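Per the labels and the study's methods, RNA of sorted cells was amplified with SMART-Seq v4, and libraries were sequenced as paired reads. The authors aligned reads with STAR 2.6.1d to GRCm38.p6 and counted them per gene with featureCounts 1.5.0-p3, as the submitters' processing notes name them. The annotation release, strand setting and treatment of multimapping reads are not given in the sources used here. The deposited table held raw counts and FPKM per library, and the authors' own DESeq2 1.20.0 comparison (fold changes and p-values), which was not used. Deposited FPKM served only to derive the gene length behind it.

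Counts were tested with edgeR 4.0.16 (R 4.3.3; filterByExpr, TMM scaling, quasi-likelihood test, 4 EpCAM+ against 4 EpCAM-, no block), with Benjamini-Hochberg adjustment over 13560 genes and a threshold of 0.05. The same quantities were computed with DESeq2 1.42.0, limma 3.58.1 (limma-trend), other scalings and filters. CPM was computed from the deposited counts on TMM-scaled totals. SE is the log2 fold change divided by the root of its F statistic. Ratios used 0.5 added to each count. The code was tested on simulated data. Replicate numbers paired the samples: deviations of same-numbered libraries correlated at 0.205 to 0.356 in 4 pairs and at -0.216 to 0.0396 in 12 others. No library repeated another. 

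The members and lists were chosen with earlier results of these data known. Named are the 10 members, genes of the ratios, up to 4 called genes per list and direction with the smallest adjusted p, genes counted alone, label checks, and the 5 most alike genes. Some others were named after their values were seen. A gene that this rule names is not reported here. Promoter windows are RefSeq's, build GRCm38.p6, matched by symbol for 8 of 10 members. Figures were drawn with matplotlib 3.10.9.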

Additional observations from a re-analysis of the deposited data

How the results depend on the processing

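The number of enzyme genes that fell was 8 with DESeq2, limma-trend, DESeq2 size factors, upper-quartile scaling, library totals, other filters on low counts, protein-coding genes alone, without immunoglobulin genes and with a replicate block. Leaving out 1 library at a time gave 8 to 9, and 0 rose under any of these. Upper-quartile scaling and library totals moved the median of all genes to 0.107 and 0.105 on the log2 scale and that of the 10 enzymes to -0.39 in both, and gave 2083 lower and 3642 higher, or 2066 and 3476, among all tested genes, in place of 2818 and 2961. Among the other pathway genes the count that rose, 5, became 9 and 8 with these scalings, and 3 to 4 with a library left out. The count that fell, 28, became 21 with both scalings, 34 with the replicate block and 24 to 30 with a library left out. The block changed the call of 12 genes over all these lists, each of which then passed, among them *Adssl1*, *Ctps2*, *Hprt*, *Pcna*, *Mcm6* and *Cd34*, and the call of no enzyme among the 10. The ratios kept their sign in every setting tried, at -0.74 to -0.50 for *Impdh2* to *Impdh1*, -0.91 to -0.74 for *Ctps* to *Ctps2*, -0.50 to -0.36 for *Ppat* to *Paics* and -0.16 to -0.01 for *Prps1* to *Prps2*. With 3 against 4 libraries the smallest exact p is 0.0571, so these say nothing of their significance. *Pfas* had the fewest reads and *Cad* the widest error of its fold change. The cause of these shifts was not tested.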
